A study of Oryza sativa Japonica Group with 3 samples.

Results

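Of the 55986 loci measured in rice seed, 71 were both abundant and steady: each was at 100 FPKM or more in the dry seed, after 24 h in water and in the germinated seed at 48 h, and its highest value was at most 1.5 times its lowest. FPKM is a count of sequenced fragments corrected for transcript length and sequencing depth. Isoforms were summed per locus before the rule was applied. The levels that chose these loci are therefore described and not tested, and their steadiness is not a finding. The seeds were of Jiucaiqing, a japonica landrace, kept in distilled water at 30 °C, and whole seeds were sampled at 0, 24 and 48 h of imbibition. Poly(A)-enriched RNA gave 1 library per time, each from 3 pooled biological replicates, so no replicate error exists, no p-value is printed and only the libraries themselves are compared. Whole seed holds embryo, aleurone and starchy endosperm together. Fewer cells of a type and less RNA per cell cannot be told apart in such samples.

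A dry seed carries messenger RNA stored since its maturation on the mother plant. On imbibition, metabolism and translation resume, part of the stored pool is degraded and new transcripts are made. Steady abundance through such a change is what is asked of a reference gene in transcript measurements, and it does not by itself tell a stored transcript from one that is made as fast as it is lost. No source used here pairs the 71 locus IDs with gene names or sequences: of 39387 genes in the reference table, 0 matched a member. They are named by that ID, whose digits after Os state the chromosome, and no function or sequence is attached to them. Tissue markers were not checked for the same reason.

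The summed FPKM of the libraries was 881252 at 0 h, 580571 at 24 h and 535327 at 48 h, and the files give no read totals. By the commonest ratio among low values, the relative worth of 1 read was 1.09 between 24 h and 0 h, 0.966 between 48 h and 24 h, and 1.06 between 48 h and 0 h, the later time on top in each. Only 113 of 3048, 106 of 3777 and 61 of 2701 isoforms held these ratios, in that order. The method favours ratios near 1, so these values are rough. The unequal sums bear on every level below: a locus at the same FPKM in all libraries takes a larger share of the later ones.

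Loci that held their level were found in every class of abundance. Of the 302 loci with at least 100 FPKM in all 3 libraries, 71 or 23.5% met the limit, which is the rule itself and no result. Grouped by their lowest value, 24% of 271 loci at 100 to 500 FPKM and 19.4% of 31 loci at 500 FPKM or more met the same limit, against 20.1% of 1590 loci at 20 to 100 FPKM, 19.8% of 5114 at 5 to 20 FPKM and 12.9% of 7082 at 1 to 5 FPKM. The exact 95% binomial intervals of the classes at 100 to 500 FPKM (19.0% to 29.5%) and at 20 to 100 FPKM (18.2% to 22.2%) overlapped. Those intervals cover counting of loci only, and loci are not independent of each other. The share in the lowest class stood below those of the next 3 classes. The 71 loci were 7.09% of the loci at 100 FPKM or more at 0 h, 10.22% of those at 24 h and 12.1% of those at 48 h, and 5.22% of the 1359 loci that reached that level in at least 1 library.

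**Figure D1:**
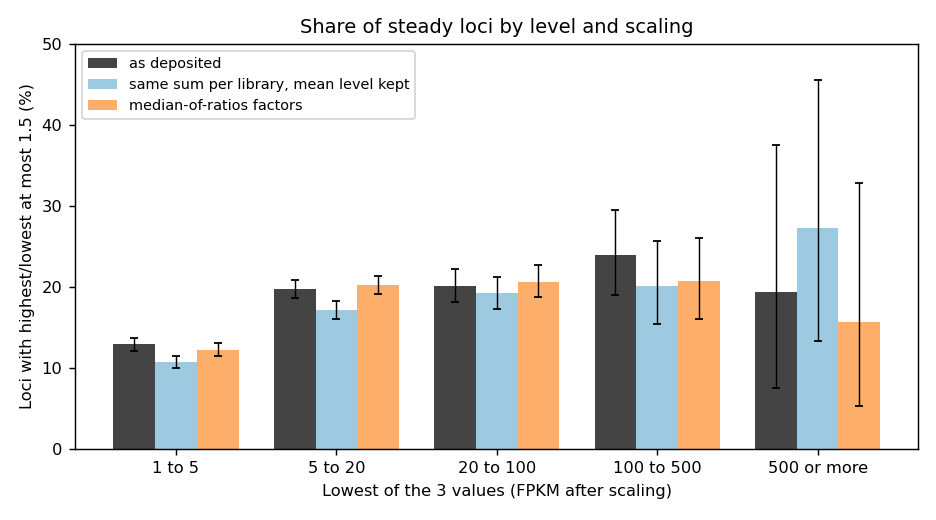
Share of loci whose highest value was at most 1.5 times the lowest, in percent, by the lowest of the 3 values, for FPKM as deposited and under 2 rescalings; error bars are exact 95% binomial intervals over loci. As deposited, the share was 12.9% in the lowest class and between 19.4% and 24% in the others.

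The limit did not fall at a gap in the data. Among the 302 abundant loci, 30 had a ratio of highest to lowest over 1.4 and up to 1.5, and 18 had one over 1.5 and up to 1.6. Just inside the limit stood LOC_Os03g38000, LOC_Os02g48610 and LOC_Os03g38260, with ratios of 1.493, 1.495 and 1.499. Just outside stood LOC_Os04g32950, LOC_Os05g02070 and LOC_Os03g28410, with 1.504, 1.507 and 1.509. The second of these was at 9621, 12028 and 14503 FPKM at 0, 24 and 48 h, far above the other loci named in this paragraph. At the floor, the lowest values inside were 100.9 FPKM for LOC_Os01g68030, 102 FPKM for LOC_Os02g57260 and 103 FPKM for LOC_Os11g33000. The highest outside, among loci that met the ratio, were 97.3 FPKM for LOC_Os06g51150, 95.8 FPKM for LOC_Os02g54160 and 95.2 FPKM for LOC_Os09g38030.

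One locus stood far above each of the other members, though together those held more of the sum. LOC_Os03g46770 on chromosome 3 was at 10003, 9143 and 7474 FPKM at 0, 24 and 48 h, lower at each step, with a ratio of highest to lowest of 1.34. It ranked 8th, 6th and 4th of all loci in these libraries, so its rank moved up while its FPKM moved down. It took 1.14% of the summed FPKM at 0 h, 1.57% at 24 h and 1.396% at 48 h. All 71 loci together took 3.53%, 4.88% and 5.39%, and without LOC_Os03g46770 they took 2.39%, 3.31% and 3.998%.

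Only 2 other members had 1000 FPKM or more in every library among the 17 loci of the series that did so. LOC_Os12g43600 on chromosome 12 was at 2415, 1699 and 1706 FPKM at 0, 24 and 48 h. Its level was high in the dry seed and nearly equal at the later times. LOC_Os01g67134 on chromosome 1 went the other way, with 1095, 1217 and 1525 FPKM at 0, 24 and 48 h.

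**Figure D2:**
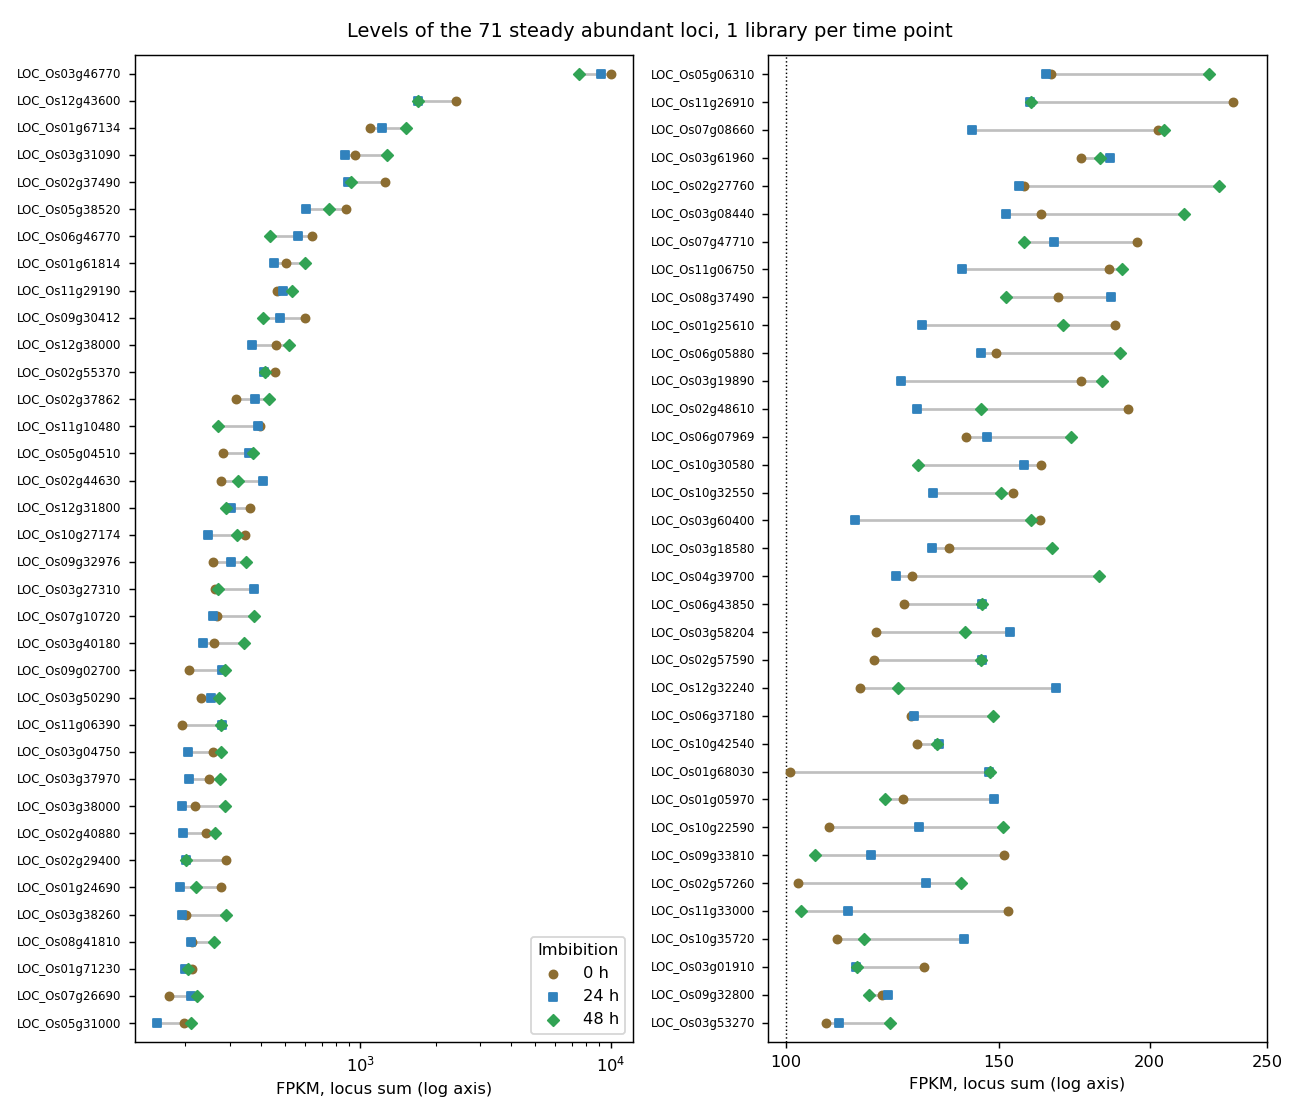
FPKM per locus on a log axis for the 71 members, ordered by mean from the top left to the bottom right; circles are 0 h, squares 24 h and diamonds 48 h, with 1 library each, and the dotted line marks 100 FPKM. The 8 loci with a mean of 500 FPKM or more lead, 27 loci lie between 200 and 500 FPKM and 36 below 200 FPKM.

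The next levels down held both directions. LOC_Os03g31090 was at 952, 865 and 1274 FPKM at 0, 24 and 48 h and was highest in the germinated seed. LOC_Os02g37490 was at 1253, 891 and 915 FPKM and was highest in the dry seed, as was LOC_Os05g38520 at 878, 604 and 748 FPKM. LOC_Os06g46770 and LOC_Os09g30412 were lower at each step: the first was at 640, 564 and 434 FPKM and the second at 601, 478 and 407 FPKM. LOC_Os01g61814 was at 503, 454 and 598 FPKM, and LOC_Os11g29190 was slightly higher at each step with 463, 488 and 535 FPKM. These, with the 3 loci above, are the 10 members of highest mean level. The members' median level was 197, 186 and 214 FPKM at 0, 24 and 48 h, against 263, 269 and 271 FPKM for the 231 abundant loci beyond the limit.

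The flattest members were of moderate level. LOC_Os09g32800 on chromosome 9 was at 120.2, 121 and 117 FPKM at 0, 24 and 48 h, with a ratio of highest to lowest of 1.04. LOC_Os10g42540 on chromosome 10 was at 128, 134 and 133 FPKM, also with a ratio of 1.04. LOC_Os03g61960 was at 176, 185 and 182 FPKM and LOC_Os01g71230 at 212, 199 and 205 FPKM, with a ratio of 1.06 for both. No other abundant locus had a ratio of 1.1 or less. The next 4 were LOC_Os02g55370 with 456, 412 and 415 FPKM, LOC_Os03g53270 with 108, 111 and 122 FPKM, LOC_Os03g01910 with 130, 114 and 115 FPKM, and LOC_Os11g29190. Their ratios were 1.11, 1.13, 1.14 and 1.16. Over all 71 members the median ratio was 1.36, nearer the limit than to 1.

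Within the narrow range the rule allows, the 3 libraries did not take the extremes equally often. Of the 71 loci, 35 were highest at 48 h, 23 at 0 h and 13 at 24 h, and 34 were lowest at 24 h, 24 at 0 h and 13 at 48 h. Extremes and profiles were not counted for other loci, so they are not read as a trait of the members. By single steps, 27 of 71 members and 137 of all 302 abundant loci were higher at 24 h than at 0 h. At 48 h relative to 24 h, 48 members and 153 of the 302 were higher. As deposited, the commonest profile was a dip at 24 h, which 34 loci showed; with each library brought to the same sum, 0 loci dipped at 24 h, all 71 were lowest at 0 h and 57 were highest at 48 h. In the deposited values, another 14 were higher at each step, 13 peaked at 24 h and 10 were lower at each step. Between the dry and the germinated seed, 45 of 71 members or 63.4% were higher at 48 h, against 52% of all 302 abundant loci and 48.5% of the 231 beyond the limit. The median log2 ratio of the members was -0.05 at the first step, 0.13 at the second and 0.10 over the whole course, medians of signed values in which loci of both directions offset each other.

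**Figure D3:**
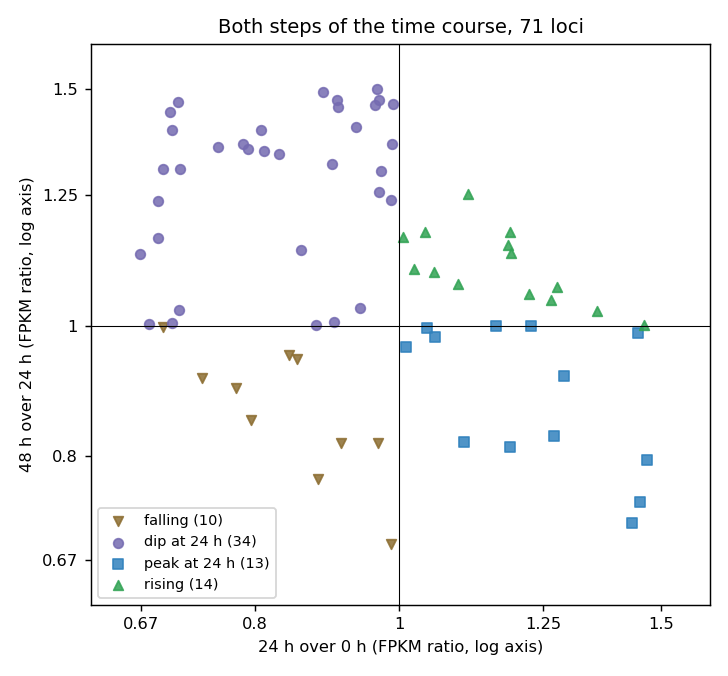
FPKM ratio of 48 h over 24 h against the ratio of 24 h over 0 h for the 71 members, both on log axes, coloured by profile. The 34 loci with a dip at 24 h in the deposited values lie left of 1 on the horizontal axis and above 1 on the vertical axis; the rule itself bounds the cloud.

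In the deposited values, the dip took different forms. In LOC_Os03g60400, with 162, 114 and 159 FPKM at 0, 24 and 48 h, and LOC_Os07g08660, with 203, 143 and 206 FPKM, the levels of the dry and germinated seed were nearly equal. In LOC_Os02g27760, with 157, 156 and 228 FPKM, and LOC_Os04g39700, with 127, 123 and 182 FPKM, the first 2 values were nearly equal and the third was higher. In LOC_Os11g26910, with 235, 159 and 160 FPKM, and LOC_Os02g48610, with 192, 128 and 145 FPKM, the dry seed stood above both later times. These 6 loci were picked as examples after their values were seen.

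Loci on the opposite course were fewer and less abundant. The 13 that peaked at 24 h had a median mean level of 138 FPKM, against 217 FPKM for the 34 with a dip, 226 FPKM for the 14 higher at each step and 274 FPKM for the 10 lower at each step. LOC_Os02g44630 was the most abundant of the 13, with 278, 409 and 325 FPKM at 0, 24 and 48 h. LOC_Os03g27310 was at 263, 377 and 269 FPKM and LOC_Os12g32240 at 115, 167 and 124 FPKM, both nearly back at the dry-seed level in the germinated seed. Among the loci higher at each step, LOC_Os01g68030 had the widest range, with 101, 147 and 147 FPKM, nearly all of it between 0 h and 24 h. Among those lower at each step, LOC_Os11g33000 had the widest, with 153, 113 and 103 FPKM, and LOC_Os11g10480 was level at first with 395 and 391 FPKM at 0 and 24 h and lower at 48 h with 269 FPKM. Members level within 5% over a pair of times numbered 16 of 71 at 48 h relative to 24 h, 15 at 24 h relative to 0 h, and 11 at 48 h relative to 0 h. Other loci were not counted in this way.

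In rank among all loci, the members were not steady. All 71 ranked nearer the top at 48 h than at 0 h, and their median rank was 516 at 0 h, 356 at 24 h and 250 at 48 h. Moves in rank were not counted locus by locus for other abundant loci. The rule makes such a move likely where fewer loci reach 100 FPKM later, so it is not read as a trait of the members. LOC_Os01g68030, at the floor, ranked 998th at 0 h and 388th at 48 h. Loci at 100 FPKM or more numbered 1001 at 0 h, 695 at 24 h and 589 at 48 h, so a level near 100 FPKM stood for a higher rank later. The median rank of the 231 abundant loci beyond the limit also moved up, being 378, 213 and 188 at 0, 24 and 48 h.

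Whether these loci count as steady therefore depended on the scale. With each library rescaled to the same sum, at the mean level of the 3, 60 loci met the rule, of which 18 were among the 71. Of the 71, 52 then went beyond the limit, their median ratio was 1.86 and all 71 were higher at 48 h than at 0 h, which follows from multipliers of 0.755, 1.15 and 1.24 for 0, 24 and 48 h. Median-of-ratios factors, which use loci of at least 1 FPKM in every library, came to 0.986, 0.976 and 1.04, and 61 loci met the rule, 59 of them members. The trimmed mean of log ratios gave the same counts. The choice between these scales was not tested, and no spike-in or read total in the files bears on it.

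Of the 71 loci, 17 met the rule as deposited and under all 3 of these rescalings. The most abundant of the 17 were LOC_Os03g46770, LOC_Os12g43600, LOC_Os02g37490, LOC_Os05g38520 and LOC_Os06g46770. Every one of the 17 was lower at 48 h than at 0 h as deposited, since rescaling to the same sum raises the later values. Under that rescaling LOC_Os12g43600 had a ratio of 1.16, LOC_Os11g33000 one of 1.12 and LOC_Os11g26910 one of 1.12. A further 42 members met the rule in 3 of the 4 scales, 1 in 2 and 11 in the deposited values alone. Among the 11 were LOC_Os03g31090, LOC_Os07g10720 and LOC_Os01g68030. The 4 flattest loci as deposited all left the set under the same sum: LOC_Os09g32800 had a ratio of 1.604 there, LOC_Os01g71230 one of 1.596, and LOC_Os03g61960 and LOC_Os10g42540 had 1.71 each.

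**Figure D4:**
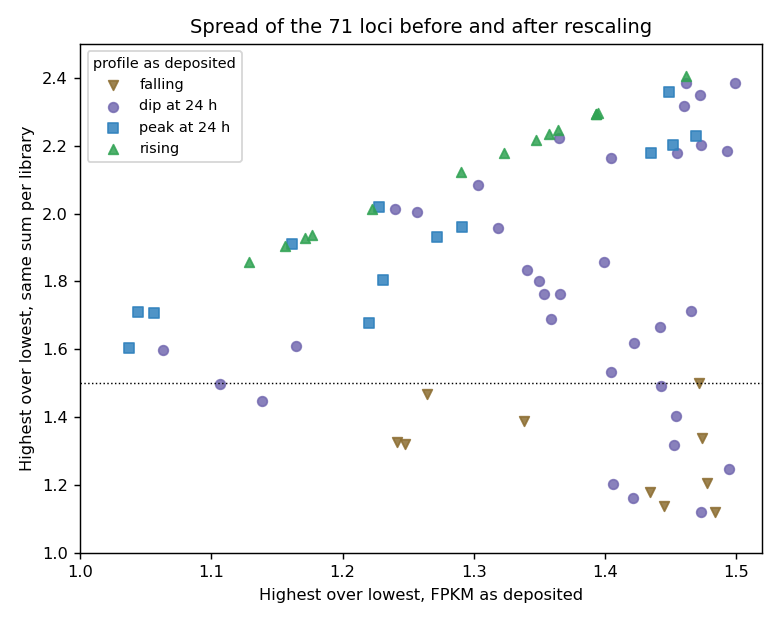
Ratio of highest to lowest value for the 71 members with libraries rescaled to the same sum (vertical axis) against the ratio for FPKM as deposited (horizontal axis), by profile; the dotted line is the limit of 1.5. The loci lower at each step lie at or under the line, and all those higher at each step lie above it.

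The rule did not use isoforms, and here the steady sums covered unequal parts. Of the 71 members, 44 or 61.97% had 1 listed isoform, against 138 of the 231 abundant loci beyond the limit or 59.7%. Among the 27 with several, 15 had a main isoform with 90% or more of the locus FPKM in every library. Of the 93 multi-isoform loci beyond the limit, 57 did, so this is no trait of the members. In 6 of the 27, or 22.2%, the main isoform differed between libraries, against 10 of 93 or 10.8% among the abundant loci beyond the limit and 13.3% of all 120 abundant multi-isoform loci. Among multi-isoform loci with at least 10 FPKM in all libraries the figure was 17.5%, so the members' share is 6 loci on a background of the same order. RSEM, named in the submitters' processing notes, divides shared reads between isoforms by estimate, so isoform values are less certain than locus sums.

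LOC_Os10g30580 on chromosome 10 had the largest shift of shares, measured as 0.5 times the summed absolute differences in isoform share between a pair of libraries. Its sum was 163, 157 and 129 FPKM at 0, 24 and 48 h. Isoform 2 was at 120, 55.5 and 10.7 FPKM and isoform 1 at 43.1, 102 and 118 FPKM, so isoform 1 held 26.5%, 64.7% and 91.7% of the locus at these times. It was the only member in which both isoforms moved by at least 50 points of the locus FPKM. LOC_Os02g44630 on chromosome 2 showed an exchange of the same kind: isoform 1 held 30.8%, 46.0% and 75.4% at 0, 24 and 48 h, and isoform 2 held 68.7%, 53.5% and 24.2%.

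LOC_Os06g46770 on chromosome 6 was listed with 6 isoforms. Isoform 6 was at 283 FPKM at 0 h and listed at 0 at both later times. Isoform 1 was at 23.9, 243 and 239.6 FPKM at 0, 24 and 48 h, while isoform 3 kept 41.4%, 42.3% and 42.6% of the sum. Isoforms 4 and 5 had identical values in every library, so their reads were not told apart. A listed 0 can be a failed estimate. LOC_Os11g06390 on chromosome 11 also had isoforms listed at 0 after the dry seed. Its isoform 2 was at 2.45, 121 and 117 FPKM at 0, 24 and 48 h, and its isoform 4 remained the main one with 141, 159 and 160.1 FPKM.

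**Figure D5:**
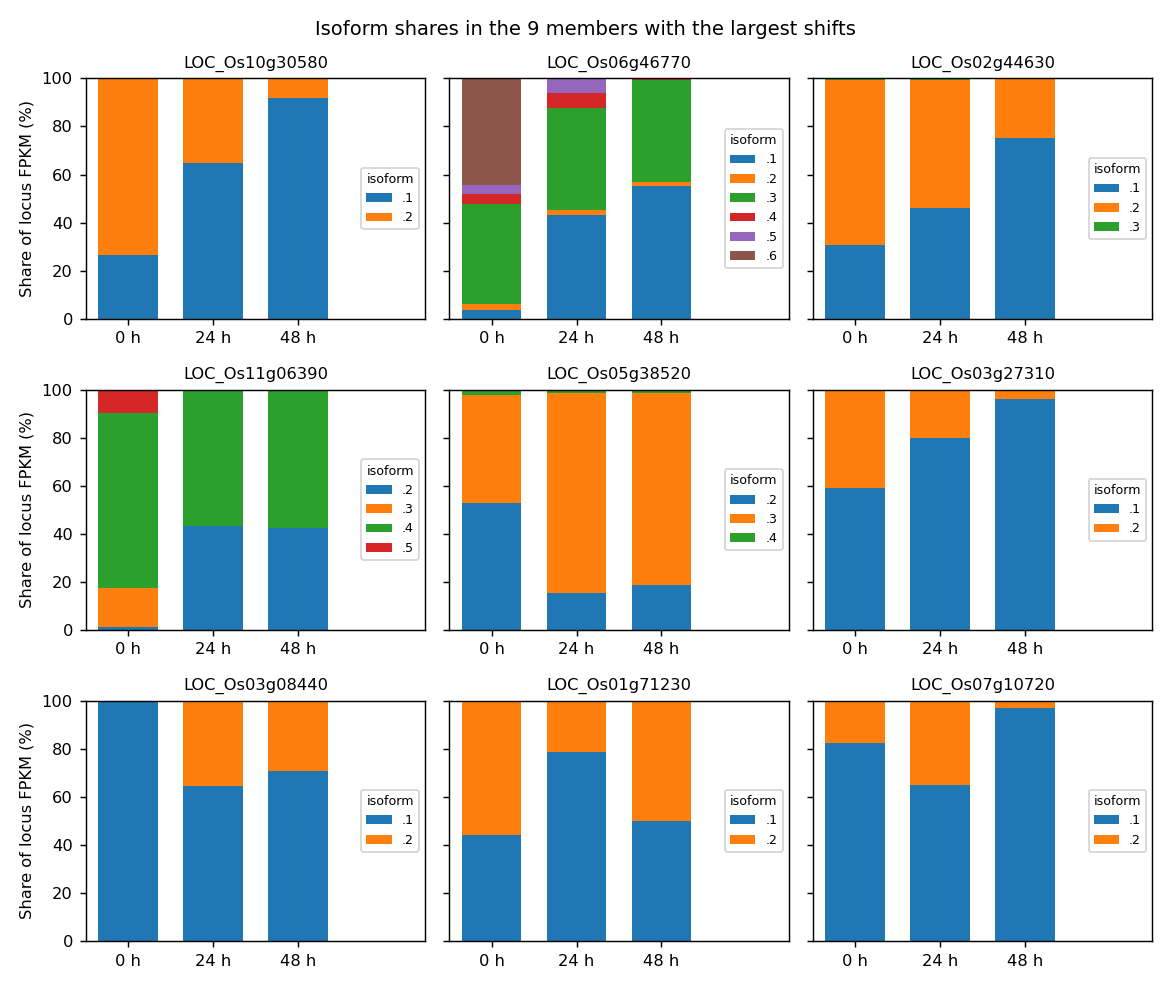
Isoform shares of the locus FPKM, in percent, at 0, 24 and 48 h for the 9 members with a largest shift of 25 points or more; isoforms at 0 in all libraries are left out. In LOC_Os10g30580 isoform 1 holds 26.5%, 64.7% and 91.7%, and in LOC_Os01g71230 the 0 h and 48 h shares are alike while 24 h differs.

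At LOC_Os05g38520 the exchange fell in the first day. Isoform 2 was at 462, 91.8 and 140.4 FPKM at 0, 24 and 48 h and isoform 3 at 396, 503 and 598 FPKM. LOC_Os01g71230, among the flattest loci by its sum, had isoforms that crossed and crossed back: isoform 1 was at 93.6, 157 and 102 FPKM and isoform 2 at 118, 42.6 and 103 FPKM. LOC_Os03g58204 exchanged its main isoform at 48 h, with isoform 1 at 42.5%, 45.5% and 64.8% of the locus.

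Beside LOC_Os11g06390, 3 members shifted by 25 points or more without an exchange. LOC_Os03g27310.1 held 59.2%, 79.9% and 96.0% of its locus at 0, 24 and 48 h. LOC_Os03g08440.2 was at 0.92, 54.1 and 62.6 FPKM, and LOC_Os07g10720.2 was at 47.0, 90.4 and 11.03 FPKM. In all, 9 of 27 members (33.3%) and 17 of 93 abundant loci beyond the limit (18.3%) had a largest shift of 25 points or more, and the median largest shift was 5.16 points in members and 3.12 points in the other set. At the other end, LOC_Os10g35720, LOC_Os11g29190, LOC_Os03g38000 and LOC_Os03g40180 had largest shifts of 0, 0.247, 0.253 and 0.599 points. Of the 41 member isoforms with 10% or more of their locus in some library, 19 were themselves within the ratio of 1.5 and 22 were beyond it, 15 of them beyond 2 or listed at 0 in a library. Isoforms of other abundant loci were not counted in this way, so no contrast with them is drawn.

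By ID, members were spread over all 12 chromosomes. Chromosome 3 held 17 of the 71, or 31.5% of its 54 abundant loci, against 23.5% of all 302. Chromosome 12 held 4 of its 7, chromosome 10 held 6 of 15, chromosome 9 held 5 of 17 and chromosome 2 held 10 of 35. Chromosome 4 held 1 of 17, LOC_Os04g39700, chromosome 8 held 2 of 21 and chromosome 1 held 7 of 45. These counts are small, and no test was made of them. No member stood next to another in ID order. Of the 302 abundant loci, 10 (3.31%) stood next to another abundant locus. A larger set has more loci side by side, so these counts cannot be compared. The nearest pair of members was LOC_Os03g37970, with 248, 206 and 276 FPKM at 0, 24 and 48 h, and LOC_Os03g38000, with 218, 193 and 289 FPKM. The locus between them, LOC_Os03g37984, was at 41.9, 63.3 and 22.0 FPKM, highest at 24 h where both were lowest.

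The loci beside members were mostly far lower, which the floor of 100 FPKM on members makes likely and which is no result. Of 142 positions next to a member, 48 held a locus under 1 FPKM in all 3 libraries and 2 a locus at 100 FPKM or more in all of them. Among all 55986 loci, only 20915 reached 1 FPKM in at least 1 library and 302 were at 100 FPKM or more in all 3. LOC_Os02g37480, beside the steady LOC_Os02g37490, was at 5732, 443 and 110 FPKM at 0, 24 and 48 h, lower at both steps by far more than the limit. LOC_Os03g18570 was at 155, 224 and 360 FPKM beside LOC_Os03g18580 at 137, 132 and 166 FPKM. At 71 positions the neighbour was at 1 FPKM or more in all libraries, and 13 of these were within the ratio of 1.5, against 16.4% of all 14088 loci at that level.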

How the data were processed

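Each deposited table holds the FPKM values of 1 library for single isoforms, per the file headers. The submitters' processing notes list edgeR 2.3.52, RSEM 1.1.11 and FastQC, with no roles. Genome build, annotation release, aligner and any scaling between libraries were not given in the sources used here. Isoform values were added up for each locus, taking IDs that start with LOC_ up to their last point. All other IDs were kept whole as loci of their own. The loci kept had at least 100 FPKM in every library and a highest value at most 1.5 times the lowest. All ratios are of FPKM with no pseudocount. With 1 library per time, no test was run.

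The members and lists were chosen with earlier results of these data known. Loci were named by rank: the 10 highest means, the 8 lowest ratios, 3 on each side of both thresholds, and the 8 largest and 4 smallest isoform shifts; others are named as examples after their values were seen. Gene lists by annotation wording were not used, because 1 locus ID and 0 members matched the reference table (assembly ASM3414082v1). The worth of 1 read was the commonest ratio among isoforms at 0.5 to 2 FPKM in both libraries, a method that favours ratios near 1. The rule, the median-of-ratios and trimmed-mean rescalings and the isoform measure were tested on simulated data. For these rescalings, the simulated loci did not change on the whole between libraries. Rescaling to the same sum was not tested in this way. Rescalings, floors, limits, pseudocounts and isoform rules were varied. Work used Python 3.11.15, numpy 2.4.6, pandas 2.3.3, scipy 1.17.1 and matplotlib 3.10.9.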

Additional observations from a re-analysis of the deposited data

How the results depend on the processing

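No replicate could be left out, and no paired analysis was possible because the study has 1 pooled library a time. Of 125 alternative values of the counts and shares, 73 stayed within 1.5 times the reported value or, for shares of loci by class, within its binomial interval. Numbers below follow the order total, highest at 0, 24 and 48 h, higher at 48 h than at 0 h. A floor of 50 FPKM gave 142 loci, 51, 36, 55 and 74, with 12 exchanges of main isoform and 4 loci next to each other. A floor of 200 FPKM gave 28 loci, 11, 2, 15 and 17, with 3 exchanges. A stricter limit on the ratio, 5 to 4, gave 19 loci, 6, 7, 6 and 10, with 1 exchange. It lowered the summed share to 0.426%, 0.643% and 0.717% at 0, 24 and 48 h, and the steady shares of the classes, from low to high, were 4.02%, 6.96%, 7.86%, 7.01% and 0%, and 5.57% over all 5. A limit of 2 gave 169 loci, 59, 34, 76 and 100, summed shares of 9.58%, 13.7% and 16.9%, and class shares of 32.9%, 44.7%, 46.9%, 56.5% and 51.6%, and 39.2% over all 5. Without a floor, 2891 loci or 11.3% of those above 0 in all libraries met the ratio, against 16.4% of those at 1 FPKM or more. These moves follow from looser or stricter rules. Under the same sum, 15 of the 60 loci that then met the rule were highest at 0 h, and the 2 lowest classes held 10.7% and 17.1%, with 14.2% over all 5 classes. With median-of-ratios scaling, and likewise with the trimmed mean, 7 of 61 were highest at 24 h. Counting only exchanges of at least 50 points left 1, and members within 5 listed loci of another numbered 2. The same sum without LOC_Os09g00999, chosen after seeing the data, gave 55 loci, 10 of them among the 71. Applied to isoforms, the rule kept 65. The files hold no read totals, so counting error is unknown; members at 100 FPKM or more are less exposed to it than low loci.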

Other observations

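Rescaling each library to the same sum brought 42 loci into the rule that were not among the 71. All 42 were lower at 48 h than at 0 h as deposited, which follows from the multipliers. The most abundant was LOC_Os08g03290, with 1773, 1295 and 1083 FPKM at 0, 24 and 48 h, a ratio of highest to lowest of 1.64 as deposited and 1.11 after rescaling. LOC_Os02g18380 was at 863, 594 and 528 FPKM, with ratios of 1.63 and 1.046, and LOC_Os01g48770 was at 762, 490.1 and 454 FPKM, with ratios of 1.68 and 1.02. LOC_Os01g08560 was among the 42 as well: its sum was at 186, 104 and 126 FPKM, while isoform 2 held 88.0% of it in the dry seed and the main isoform at 24 h and 48 h was isoform 1. These 4 loci were picked after their values were seen.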
